A study of Homo sapiens with 24 samples.

Results

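The transcripts of the 5 human proteins with a YTH domain, YTHDF1, YTHDF2, YTHDF3, YTHDC1 and YTHDC2, were examined for their own m6A peaks along pancreatic differentiation and in pancreatic progenitors without ALKBH5. A peak was taken as a member when the Ensembl gene ID of 1 of these 5 genes stood in its gene field. This gave 136 peaks of 228472 in 6 lists, on 5 of 27200 genes that had a peak in at least 1 list. No member peak carried the ID of a second gene.

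N6-methyladenosine (m6A) is a methyl mark on internal adenosines of mRNA, which a writer complex around METTL3 and METTL14 adds and ALKBH5 and FTO remove. The YTH domain is a fold that binds the methylated adenosine, so these proteins are called readers. YTHDF1, YTHDF2 and YTHDF3 are closely related cytoplasmic proteins. YTHDF2 is best known for recruiting the CCR4-NOT deadenylase to methylated mRNA and thereby speeding its decay. YTHDC1 is the nuclear reader, known for roles in splicing and mRNA export, and YTHDC2 is an RNA helicase known for its role in meiotic germ cells. The readers are themselves made from mRNAs that can be methylated, and those marks are what is described here.

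m6A-seq had been made on 24 libraries of the MEL1 human embryonic stem cell line and its derivatives. An antibody against m6A precipitates RNA fragments (IP), and a methylated stretch appears as an excess of IP over the unprecipitated input. The first batch covered 4 stages. They were undifferentiated pluripotent cells (hPSC), the definitive endoderm formed from them (DE), progenitors of the pancreas (PP) and organoids that resemble human islets (hILO). It was made from poly(A)-enriched mRNA with a SYSY antibody. The second batch held progenitors of the unedited line (WT PP) and of cells that lack the demethylase ALKBH5 (A5-KO PP), and was made from total RNA with a Millipore antibody, another library kit and rRNA depletion of the input. All cells came from the same line, which carries a GFP reporter in the insulin gene per the methods, and the stages were reached by a stepwise protocol with activin A and CHIR99021, KGF, retinoic acid and then R6 medium for the organoids. A5-KO cells carried CRISPR-Cpf1 indels in exon 1 of ALKBH5 and grew from picked colonies, so a clone and its genotype cannot be told apart. Each population had 2 IP and 2 input libraries, but 1 list of peaks called on all 4 together. Thus every value below is 1 value per population with no replicate check, and no test between conditions was possible. The 2 batches differ in RNA, antibody and kit, and differences between them cannot be told apart from the cells.

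The lists held 29083 to 55219 peaks, with 30723097 to 79822815 IP reads and 6987612 to 28463998 input reads inside them. Stage markers were read from whether they carried a peak. All 4 pluripotency markers (POU5F1, NANOG, LIN28A, DPPA4) did in hPSC and DE, 2 in PP and 1 in each of the other lists. That 1 was LIN28A in hILO and DPPA4 in the second batch, with 4 peaks in A5-KO PP against 6 in WT PP and 5 in hPSC. Of 4 endoderm markers 1 did in hPSC, 3 in PP and hILO, and all in DE and the second batch. Of 4 progenitor markers 3 did in PP and hILO, all in the second batch, 1 in hPSC and 0 in DE. Of 4 islet markers (INS, GCG, SST, CHGA) all did in hILO and CHGA alone in the other 5 lists. Of 6 markers of liver, gut and neural cells, the number with a peak was 0, 1, 2 and 5 along the stages from hPSC to hILO and 4 in either list of the second batch. One of the 5 in hILO was PAX6, which islet cells also express. Their part in the results below was not tested. ALKBH5 itself had 5 peaks in A5-KO PP against 4 in WT PP. What the indels do to its transcript was not measured here, so this count checks no label.

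A limit of the lists bears on the read counts of the members. In each list the IP count of a peak should follow its exonic length, since a longer stretch collects more reads. This held over part of each list only. In windows of 300 peak numbers on either side the log2 IP count followed the log2 length best when it was taken from a row some numbers earlier. Among windows where 1 such offset stood clear of all others, the offset differed from 0 in 52.8% (hPSC), 48.7% (DE), 80.6% (PP), 80% (hILO), 84.1% (WT PP) and 85.5% (A5-KO PP). The median correlation in these windows at the row itself lay between -0.02 and 0.03, against 0.43 to 0.53 at the called offset over all called windows. Input counts of peaks with identical positions in 2 lists gave a check that the call had not used. Their rank correlation rose from 0.65 to 0.72 between hPSC and DE (n = 1621 peaks), from 0.3 to 0.61 between DE and PP (n = 1103), from 0.36 to 0.52 between PP and hILO (n = 915) and from 0.46 to 0.67 between WT PP and A5-KO PP (n = 1352) when both counts were taken at the offset. The points share libraries and peak lengths, and the correlations are given as a description.

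**Figure D1:**
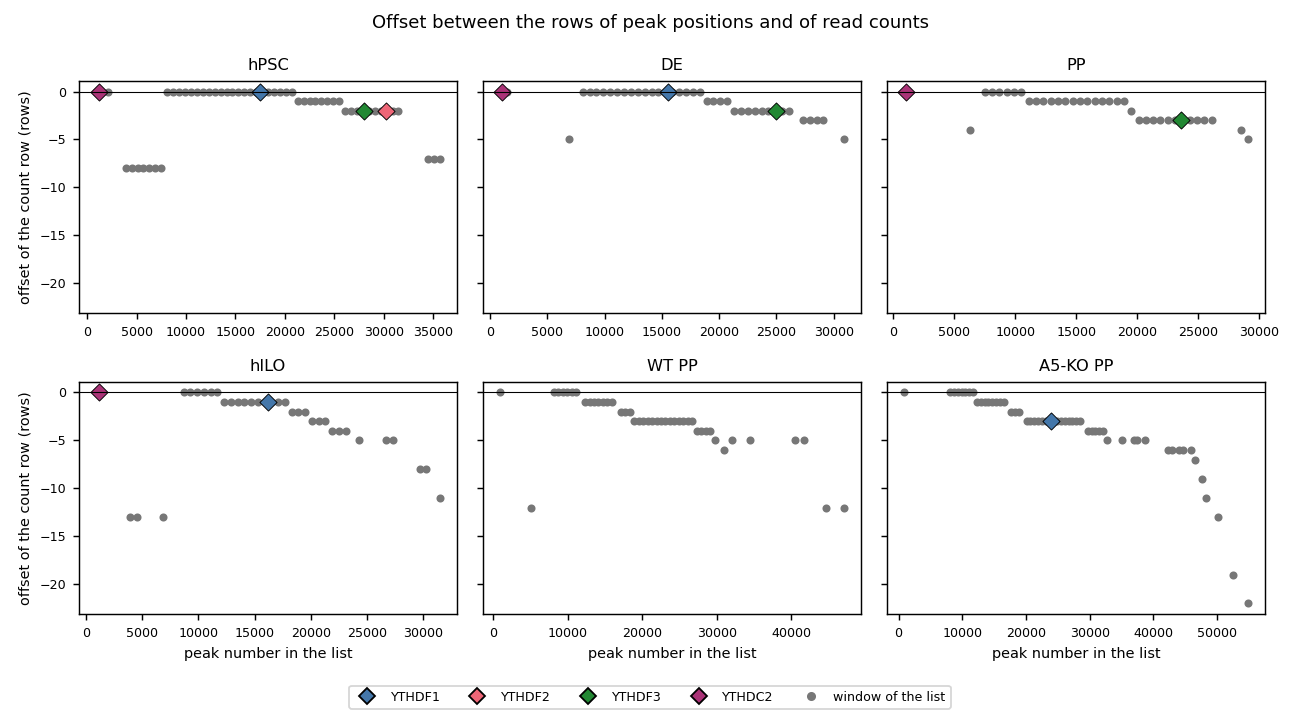
Offset, in rows, between the position of a peak and the row whose read count followed its length (y axis), by peak number (x axis), for the 6 lists. Grey points are windows with a called offset and diamonds are the reader transcripts whose counts are used. The offset was 0 in the first windows with a call. In every list but A5-KO PP 1 or more windows at a negative offset followed, the offset then returned to 0, and in all 6 lists it fell again toward the end, as far as -22 in A5-KO PP.

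Positions, gene IDs and peak widths do not depend on this offset, and the results below rest on them first. Read counts of members are given for 51 of 136 peaks, those of a gene whose peaks in a list stood on consecutive numbers in a window with a called offset. For 22 of these the offset was 0, and the count is that of the row itself. For the other 29 the count was taken from the row at the offset, which is an inference. For the 85 remaining peaks, all 39 of YTHDC1 among them, no read count of a single peak is given. Values of their rows as deposited enter only the comparisons and thresholds over all members. Some peak numbers had no row, from 0.136% of numbers in hPSC to 9.51% in WT PP, and whether a reader peak was among them cannot be told.

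The reader transcripts carried 23, 23, 24 and 21 peaks along the stages from hPSC to hILO. The second batch had 25 in A5-KO PP against 20 in WT PP. All peaks numbered 36659, 32680, 29083 and 31519 along the stages, and 55219 in A5-KO PP against 43312 in WT PP, so the A5-KO PP list was longer as a whole too. All 5 genes had at least 2 peaks in every list, where the median gene with a peak had 2. YTHDC1 had 7, 7, 6, 7, 6 and 6 peaks in the order hPSC, DE, PP, hILO, WT PP and A5-KO PP, more than 85.5% (WT PP) to 94.8% (hILO) of the genes with a peak in the same list. YTHDF1 had 5, 5, 3, 5, 3 and 6 peaks. YTHDF2 had 5, 5, 5, 4, 2 and 3, and YTHDF3 had 3, 3, 7, 2, 5 and 4. YTHDC2 had 3, 3, 3, 3, 4 and 6. In bulk cells fewer cells of a type and less RNA per cell cannot be told apart, and a transcript with few reads also yields fewer peaks.

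The number of peaks is a poor measure of how much of a transcript is methylated, because a long stretch can be listed whole or in pieces. YTHDF3 showed this most plainly, with its fewest peaks in hILO and its most in PP. The exonic length inside peaks of this gene was 2125, 1700, 1725 and 1900 nt along the 4 stages, 2800 nt in WT PP and 2525 nt in A5-KO PP. YTHDF2 varied least, with 1600, 1450, 1400, 1500, 1675 and 1525 nt. YTHDF1 varied most, with 1225, 875, 525, 1725, 900 and 1475 nt. YTHDC1 had 1425, 1500, 1300, 2100, 2250 and 1375 nt, and YTHDC2 had 400, 575, 500, 475, 675 and 850 nt. Within the first batch the sum over the 5 genes was lowest in PP, at 5450 nt, and highest in hILO, at 7700 nt. The summed length over all peaks was also lowest in PP, at 6339333 nt. It was 8787811 nt in hPSC, 7534428 nt in DE and 8654969 nt in hILO.

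**Figure D2:**
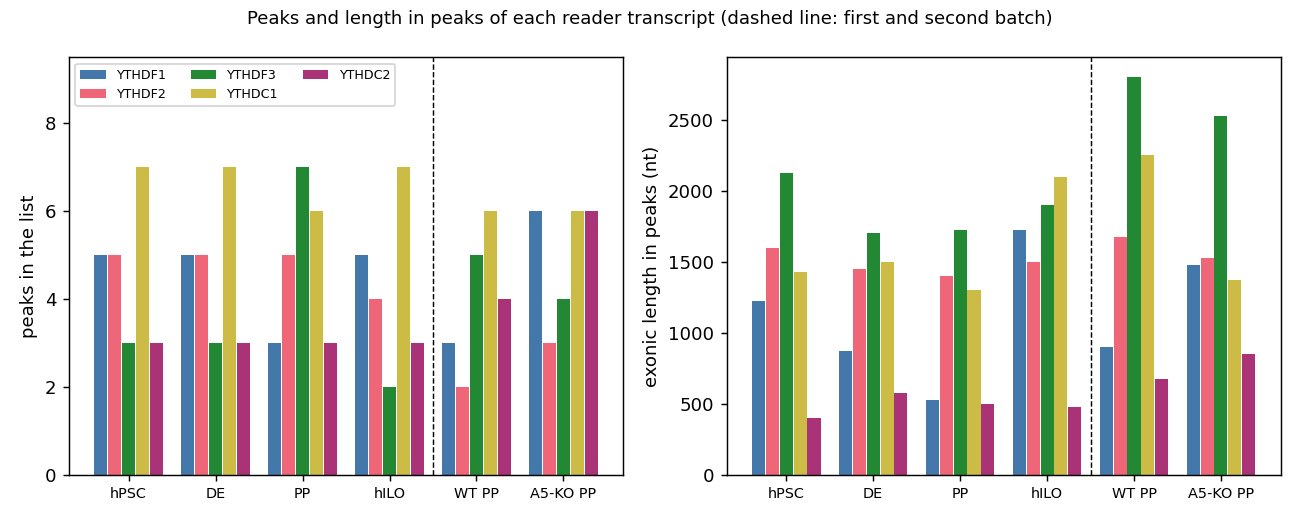
Number of peaks (left) and exonic length inside peaks in nt (right) of each reader transcript in the 6 lists, 1 bar per gene and list, with a dashed line between the batches. The 2 panels differ in order: YTHDF3 had 2 peaks in hILO but 1900 nt inside them, and 7 peaks in PP with 1725 nt.

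Peaks of different lists were joined into a place where their exons overlapped by more than 50% of the shorter peak, which gave 24 places. YTHDF1 had 5, of which 2 were found in all 6 lists. YTHDF2 had 4, with 1 in all lists, YTHDF3 had 4, with 2 in all lists, YTHDC1 had 5, with 4 in all lists, and YTHDC2 had 6, with 2 in all lists. By bases, 50% of the length that was in a peak of any list was in a peak of all 6 lists for YTHDF3, 46.2% for YTHDF2, 27.5% for YTHDC1, 20.5% for YTHDC2 and 16.2% for YTHDF1. Bases were printed from the places found in all lists.

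YTHDF3 had the most bases common to all 6 lists, 1425 nt, but its sequence is not reported here. In the other genes 8 places had bases common to all 6 lists, and the bases around 1 motif of each are printed on the transcript strand, to show the letters that the peaks share. The first place of YTHDC1 was in all 6 lists too, but its peaks had 0 nt common to all of them, so none is printed. The m6A consensus is called DRACH, which stands for A, G or T, then A or G, then AC, then A, C or T. GGAC is a frequent core of it and overlaps it. In each window the DRACH nearest the middle of the longest stretch common to all 6 lists was taken, one that begins with GGAC where there was any. A GGAC followed by G is no DRACH and was not taken. Capitals mark the motif, and the sequences were read from GRCh38. A motif inside a peak is a description and not a mapped site. The windows were chr20:63202406-63202434 (minus strand, coding), chr20:63195432-63195460 (minus, 3UTR), chr1:28743651-28743679 (plus, coding), chr4:68337129-68337157 (minus, coding), chr4:68322607-68322635 (minus, an exon outside the longest coding isoform), chr4:68314122-68314150 (minus, coding), chr5:113593591-113593619 (plus, 3UTR) and chr5:113593883-113593911 (plus, 3UTR), in this order.
YTHDF1 coding exon: cacaaactcccgGGACAcccaggaggtgc
YTHDF1 end of the 3UTR: acaagccttaatAAACAatactatttagc
YTHDF2 coding exon: gtcaacggcagtGGACActtctgtggcgt
YTHDC1 exon 4: acaggatgagagAGACCagaaagaggagg
YTHDC1 exon outside the isoform: atcaagctgcatGGACTagtttgtggctt
YTHDC1 last exon: attatgtgatcgAGACAgagaccgagggg
YTHDC2 start of the 3UTR: agtgttgctttaGAACTaccatcttcata
YTHDC2 further in the 3UTR: attatcattagaAAACAaatacgtcaaca
The coding windows of YTHDF1 and YTHDF2 held the GGACA form, and both 3UTR windows of YTHDC2 held a DRACH without GGAC.

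The 3 YTHDF transcripts were marked in 1 long coding exon. In the longest coding isoform of each, nearly all of the coding sequence lies in 1 exon, of 1521 nt in YTHDF1 (exon 4 of 5, chr20:63202287-63203807), 1584 nt in YTHDF2 (exon 5 of 6, chr1:28742403-28743986) and 1599 nt in YTHDF3 (exon 5 of 6, chr8:63186147-63187745). Peaks of any list covered 81.8%, 92% and 95.4% of these exons. The stretch common to all 6 lists took 200 nt of this exon in YTHDF1, 857 nt in YTHDF2 and 1025 nt in YTHDF3. YTHDC1 has 1 exon of 424 nt (exon 4 of 17, chr4:68337027-68337450), which was covered to 100%, with 250 nt common to all lists.

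Over the 5 genes, 90.7% of the bases in exons of 400 nt or more other than the last one were in a peak, against 40.8% over all genes with a peak. In shorter exons other than the last one the shares were 25.7% and 15.7%, and in last exons 25.7% and 23.4%. A base counted when it was in a peak of any list. The 5 genes had peaks in all 6 lists, while all genes with a peak include some listed in fewer. The sets are thus unlike, and the part of detection in the gap was not tested. YTHDC2 stood apart from the other 4 in having no exon of 400 nt or more before its last one. Of its 4502 nt in shorter exons 5.58% were in a peak, and of the 1803 nt in its last exon, which is all 3UTR, 37.4% were.

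By the midpoint of the peak on the longest coding isoform, 65 of the 136 member peaks lay in the coding sequence (CDS), 40 in the 3UTR, 10 in the 5UTR and 21 in exons outside that isoform. These were 47.8%, 29.4%, 7.35% and 15.4%. Over all peaks of coding genes the shares in the 6 lists were 40.3% to 46.5%, 32.2% to 40%, 3.34% to 6.02% and 13.8% to 17.8%. Within 200 nt of the stop codon lay 30, or 22.1%, where the share over all of these peaks was 14.3% to 18.1% in the 6 lists. The genes differed in where their marks were. In YTHDF1 18 of 27 peaks were in the CDS and 9 in the 3UTR. In YTHDF2 14 of 24 were in the CDS, and in YTHDF3 11 of 24. In YTHDC1 20 of 39 were in the CDS, 6 in the 5UTR and 3 in the 3UTR. In YTHDC2 17 of 22 were in the 3UTR and 2 in the CDS.

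**Figure D3:**
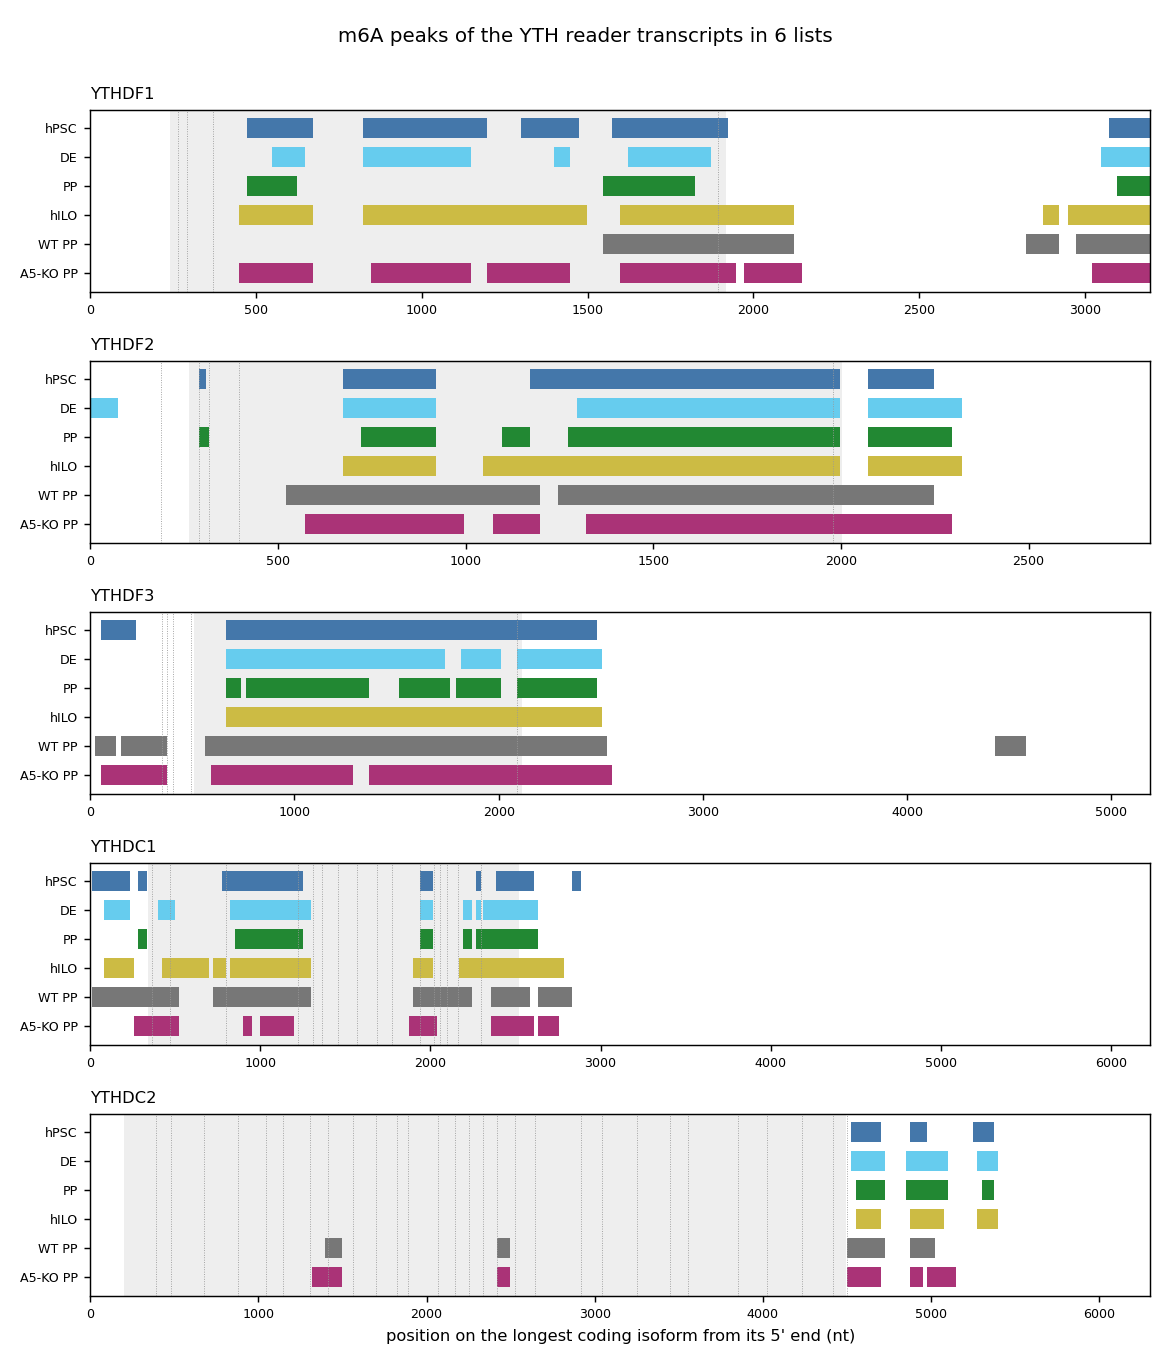
Peaks of each reader transcript (coloured bars) by position on the longest coding isoform in nt from the 5' end (x axis), 1 row per list. Grey shading is the coding sequence and dotted lines are exon boundaries, and exons outside the isoform are not drawn. Over the lists together, peaks of YTHDF1, YTHDF2 and YTHDF3 covered 81.8%, 92% and 95.4% of the long coding exon, while single lists covered less, and those of YTHDC2 lay behind the stop codon, with coding peaks in WT PP and A5-KO PP alone.

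YTHDF1 lies on the minus strand of chromosome 20. Its coding exon carried peaks in 3 stretches, near its start, in its middle and at its end. The one at the end (chr20:63196479-63202630) was in all 6 lists. It reached into the last exon in hPSC, hILO, WT PP and A5-KO PP and stayed inside the coding exon in DE and PP. The middle one (chr20:63202681-63203355) was in hPSC, DE, hILO and A5-KO PP, with peaks of 375 and 175 nt in hPSC, 325 and 50 nt in DE and 300 and 250 nt in A5-KO PP and 1 peak of 675 nt in hILO. It was in neither PP nor WT PP, and whether such a peak was among the numbers without a row cannot be told. The stretch near the start (chr20:63203506-63203730) was in every list but WT PP, with a length of 100 to 225 nt. In the 3UTR the last bases of the transcript were in a peak in all 6 lists (chr20:63195429-63195678), and a second place (chr20:63195704-63195803) was listed in hILO and WT PP.

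YTHDF2 lies on the plus strand of chromosome 1. Its coding exon and the start of its 3UTR formed 1 marked stretch in all 6 lists (chr1:28742530-28769271), broken into 2 to 4 peaks. The longest peak of each list began inside the coding exon and reached the last exon, with an exonic length of 825, 700, 725 and 950 nt along the 4 stages, 1000 nt in WT PP and 975 nt in A5-KO PP. In both lists of the second batch this peak ran past the stop codon without a break. In the 4 stages it ended at position 28768946, just before the stop codon, and a separate peak of 175 to 250 nt followed it in the 3UTR. A place in the 5' part of the gene (chr1:28737376-28737792), which holds exon 3 of the isoform but has the midpoints of its peaks outside the isoform, was listed in the 4 stages and not in the second batch. A peak of 75 nt at the start of the transcript was listed in DE alone, and one of 50 nt outside the isoform in hPSC alone.

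YTHDF3 lies on the plus strand of chromosome 8. Its coding exon, with a few bases of an exon outside the isoform, was 1 peak of 1500 nt in hPSC, 1450 nt in hILO and 1600 nt in WT PP. In DE the place was 2 peaks of 1075 and 200 nt and in A5-KO PP 2 of 700 and 800 nt. In PP it was 5 peaks of 50 to 600 nt, of which the one of 50 nt lay outside the isoform. A peak of 425 to 500 nt behind it, reaching into the 3UTR, was in all 6 lists (chr8:63188984-63210148). The first exons carried a peak in hPSC, WT PP and A5-KO PP, and PP had one of 75 nt just behind exon 2, outside the isoform. A place 2393 nt behind the stop codon was listed in WT PP alone.

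YTHDC1 lies on the minus strand of chromosome 4 and had marks from the first exon to the last. In all 6 lists were 4 places, in exons 1 to 3 (chr4:68337670-68350082), in exons 3 to 5 (chr4:68333320-68337644), in exons 11 to 16 with parts outside the isoform (chr4:68316243-68322813) and around the stop codon (chr4:68313787-68315892). Exons 6 to 10 held no peak in any list. The first place was a peak of 575 nt over 4 exons in WT PP and of 325 nt in A5-KO PP. In the stages it was peaks of 50 and 225 nt in hPSC, 100 and 150 nt in DE, 50 nt in PP and 275 and 175 nt in hILO. One more place, of 50 nt in the 3UTR, was listed in hPSC alone. Of the 3937 nt of the last exon 14.9% were in a peak.

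YTHDC2 lies on the plus strand of chromosome 5. Its first 3UTR place (chr5:113593456-113593705) lay at the start of exon 30 and measured 150 to 250 nt in the 6 lists. The second (chr5:113593831-113594130) was also in all 6, and the third (chr5:113594231-113594380) in the 4 stages alone. Coding exons carried peaks in the second batch alone, in exons 8 and 9 (chr5:113539090-113541050) and in exon 18 with bases outside the isoform (chr5:113556262-113561155), each in both WT PP and A5-KO PP. A peak of 50 nt outside the isoform (chr5:113514207-113514256) was listed in A5-KO PP alone.

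To ask how the marks pass from stage to stage, a peak was counted as inherited when peaks of the stage before covered more than 50% of its exonic length. From hPSC to DE 19 of 23 member peaks were inherited, or 82.6%, against 64.7% of all DE peaks. From DE to PP 18 of 24 were, or 75%, against 56.9% of all. From PP to hILO 14 of 21 were, or 66.7%, against 45.5% of all. The member share was above the share over all peaks at each step, and it fell from step to step as that of all peaks did. Member peaks are few and lie on 5 genes, so these shares are a description.

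By gene, all 5 DE peaks of YTHDF1 and all 3 of YTHDF3 were inherited from hPSC, with 4 of 5 for YTHDF2, 5 of 7 for YTHDC1 and 2 of 3 for YTHDC2. In PP all 3 peaks of YTHDC2 were inherited, 5 of 7 of YTHDF3, 5 of 6 of YTHDC1, 3 of 5 of YTHDF2 and 2 of 3 of YTHDF1. In hILO all 4 of YTHDF2, both of YTHDF3 and all 3 of YTHDC2 were inherited, and 4 of 7 of YTHDC1, but 1 of 5 of YTHDF1. The bases of YTHDF1 were compared in the same way. DE lacked 375 nt of hPSC bases and had 25 nt that hPSC lacked. PP lacked 500 nt of DE bases and had 150 nt that DE lacked. For hILO these were 50 nt of PP bases lacking and 1250 nt not in PP. The lists differ in depth, and its part in these lengths was not tested. Over the 5 genes 88.5%, 86.2% and 64.9% of the bases in peaks were already in a peak of the stage before, against 76.3%, 68.6% and 57.9% over all peaks.

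In the comparison of A5-KO PP with WT PP, which asks how the marks differ without the demethylase, 20 of 25 member peaks of A5-KO PP were shared with WT PP, or 80%, against 46.7% of all A5-KO PP peaks. Where the overlap had to pass 50% of both peaks, 13 of 25 were shared, or 52%, against 30.9% of all. In the other direction 16 of 20 WT PP peaks were shared with A5-KO PP, or 80%, against 49.9% of all. All peaks of YTHDF2 (3), YTHDF3 (4) and YTHDC1 (6) in A5-KO PP were shared, with 3 of 6 of YTHDF1 and 4 of 6 of YTHDC2.

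The length in peaks moved in both directions among the 5 genes. YTHDF1 had 1475 nt in A5-KO PP and 900 nt in WT PP, with 800 nt in A5-KO PP alone and 225 nt in WT PP alone. YTHDC2 had 850 and 675 nt, with 250 nt in A5-KO PP alone and 75 nt in WT PP alone. YTHDC1 had 1375 nt in A5-KO PP and 2250 nt in WT PP, with 50 and 925 nt in either alone. YTHDF2 had 1525 and 1675 nt with 50 and 200 nt, and YTHDF3 had 2525 and 2800 nt with 50 and 325 nt. The sum over the 5 genes was 7750 nt in A5-KO PP and 8300 nt in WT PP, while the sum over all peaks was 13952003 nt in A5-KO PP and 12546593 nt in WT PP. Length in peaks was thus higher in A5-KO PP in 2 of 5 genes and lower in 3, with no replicate check. The A5-KO PP list also had fewer reads inside peaks, 38575826 IP and 12716287 input against 59982995 and 19034654 in WT PP. The part of depth in these lengths was not tested.

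DRACH was denser inside the peaks than outside all peaks in exons of these genes. Over the 5 genes there were 21.5 sites per kb in peaks and 16.6 outside, a ratio of 1.29, against 21 and 17.9 per kb, a ratio of 1.17, over all genes with a peak. Each gene had the higher density inside, with 20.5 and 15.5 per kb in YTHDF1, 22 and 11.7 in YTHDF2, 22.1 and 14.2 in YTHDF3, 19.8 and 17.6 in YTHDC1 and 24.5 and 17.9 in YTHDC2. On the opposite strand of the same stretches the order was the other way, with 17 per kb in peaks and 22.4 outside over the 5 genes. Over all genes with a peak it was so too, with 15.9 per kb in peaks and 18.8 outside. YTHDF1 differed, with 17.8 in peaks and 16.2 outside. A DRACH was present in 125 of 136 member peaks, where 89% to 92.9% of all peaks in the 6 lists held one.

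GGAC was counted in the same way. Over the 5 genes there were 4.35 GGAC per kb in peaks and 1.79 outside, a ratio of 2.43, against 4.55 and 3.18 per kb, a ratio of 1.43, over all genes with a peak. The density in peaks was thus close to that of all genes, and the density outside was lower. In YTHDF2 there were 14 in 2275 nt of peaks and 1 in 1454 nt outside, and in YTHDF3 12 in 2850 nt and 3 in 3313 nt. In YTHDC2 there was 1 in 1100 nt of peaks and 18 in 9705 nt outside. Its density was lower inside peaks, unlike in the other 4, but this rests on 1 site. GGAC was present in 78 of 136 member peaks, where 51.2% to 57.7% of all peaks held it.

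Read counts came first from the transcripts whose rows needed no offset. For YTHDF1 these were hPSC and DE. In hPSC the peak near the start of the coding exon had 2444 IP and 362 input reads, the 2 middle peaks 7678 IP and 727 input and 3323 IP and 473 input reads, the peak at its end 6438 and 642, and the last one in the 3UTR 1338 and 194. In DE the same places had 641 and 336, 2511 and 802, 763 and 361, 2390 and 1047, and 1768 and 933 reads. The longest middle peak had the highest IP count in both lists.

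For a comparison between lists the log2 ratio of IP to input, with 1 added to each count, was taken less the median of all peaks of the list, and its counting error is given. It has no term for GC content and covers counting error only. The middle peak of YTHDF1 stood at 0.11 ± 0.06 in hPSC and 0.29 ± 0.06 in DE, and the other 4 places stood between -0.54 and 0.03 in hPSC and between -0.43 and -0.16 in DE. DE less hPSC was 0.12, 0.19, 0.21, -0.19 and 0.08 for the 5 shared peaks, with counting errors of 0.08 to 0.13. All 5 were below 1 in size. On the caller's log2 enrichment of the same rows the differences were -0.06, -0.1, 0.09, -0.28 and 0.03.

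The called offset of YTHDC2 was 0 in each of the 4 stages. The correlation at that offset was 0.61 in hPSC and 0.58 in DE, but 0.36 in PP and 0.31 in hILO. In PP and hILO the windows of the list on either side had no called offset. The first 3UTR peak of YTHDC2 had 624 IP and 57 input reads in hPSC and 181 and 103 in DE. It had 293 and 122 in PP, then 292 and 123 in hILO. The centred log2 ratio was 0.14 ± 0.2, -0.54 ± 0.18, -0.94 ± 0.16 and -0.17 ± 0.15 along the stages from hPSC to hILO. The second peak stood at -0.29, -0.45, -0.46 and -0.22 in the same order, and the third at -0.23, -0.46, -0.83 and -0.35. On this scale PP had the lowest value of the 4 stages at each of the 3 places. PP less DE was -0.4 ± 0.24, -0.01 ± 0.22 and -0.37 ± 0.3, and none of these passed 2 counting errors. The caller's log2 enrichment of the same rows gave another order of the stages at all 3 places. It was 1.82, 2.3, 1.66 and 1.77 at the first place, 1.54, 2.27, 2.1 and 1.73 at the second and 1.57, 1.3, 1.17 and 1.22 at the third, so PP was lowest at 2 of the 3 places and hPSC at the second. At the first place DE less hPSC was -0.68 ± 0.27 on the centred ratio and 0.48 on the caller's scale, so the direction turned round. From PP to hILO the centred ratio differed by 0.77 ± 0.22, 0.24 ± 0.19 and 0.49 ± 0.24, and 2 of these 3 differences were more than 2 counting errors. The caller's log2 enrichment changed by 0.11, -0.37 and 0.05 at the same places, so the size depended on the scale at all 3 and the direction at the second.

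The counts below were taken at an offset and carry that limit. For YTHDF2 in hPSC, at an offset of -2, the 825 nt peak of the coding exon had 35207 IP and 2371 input reads, more than any other member peak with a count. Its centred log2 ratio was 0.6 ± 0.03. The 3UTR peak behind it had 2309 and 219 reads, and the 250 nt coding peak before it 6088 and 609.

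For YTHDF3 the coding peak of 1500 nt in hPSC had 15810 IP and 1287 input reads at an offset of -2, with a centred ratio of 0.33 ± 0.04. In DE the 1075 nt peak had 1821 and 510 reads and stood at 0.48 ± 0.07. In PP, at an offset of -3, the 600 nt peak had 3071 and 660 reads and stood at 0.02 ± 0.06, and the other 4 pieces stood between -0.77 and -0.36. The peak behind the stop codon stood at 0.27 ± 0.09 in hPSC, -0.24 ± 0.1 in DE and -0.1 ± 0.09 in PP. The 600 nt piece in PP stood 0.46 below the 1075 nt peak of DE, as PP less DE was -0.46 ± 0.1. The 200 nt peak of DE stood at -0.44 ± 0.13, below that piece.

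For YTHDF1 the middle peak stood at 0.23 ± 0.04 in hILO, with 5308 IP and 1702 input reads at an offset of -1. In A5-KO PP, at an offset of -3, both middle peaks had 6707 and 1548 and 5561 and 1446 reads and stood at -0.32 ± 0.04 and -0.49 ± 0.04. The lowest value of any member peak with a count was that of the peak just behind the stop codon in A5-KO PP, with 333 and 275 reads, at -2.16 ± 0.12. No count of WT PP was usable for YTHDF1 or any other reader, so counts at a called offset gave no ratio of the genotypes. Counts of the rows as deposited are compared separately below.

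The log2 enrichment deposited in the row of each peak was also compared, as the study's own scale, although for most members it need not belong to the peak. It differed by 1 or more in 3 of 19 shared member peaks from hPSC to DE, against 11.3% of all shared peaks, in 2 of 18 from DE to PP, against 15.5%, in 3 of 14 from PP to hILO, against 17.3%, and in 12 of 20 between WT PP and A5-KO PP, against 66.9%. Of those 12, 7 were higher and 5 lower in A5-KO PP, where 38.1% of all shared peaks were higher and 28.8% lower by 1 or more. With the centred log2 ratio of the counts in the same rows 13 of 20 pairs differed by 1 or more, against 62.7% of all. Of these 4 were higher and 9 lower, against 28.7% and 34% of all, so the balance of directions turned round with the scale for the members and for all peaks. With counts at the offset in both lists, the member pair that differed most was the 75 nt piece of the YTHDF3 coding exon in PP, where PP less DE, against the 1075 nt peak of DE, was -1.26 ± 0.16.

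Other genes of the m6A pathway gave the setting. All 9 writer genes had a peak in each of the 6 lists. ZC3H13, a scaffold of the writer complex, had the most, with 61 over the lists, and METTL3, the catalytic subunit, had the fewest, with 13. Of the 2 eraser genes ALKBH5 had 21 peaks over the lists and FTO 15, and FTO had 0 in hPSC and in hILO. Of 10 other reader genes all had a peak at each stage of the first batch, and 9 in either list of the second. PRRC2A was highest with 31 peaks, and IGF2BP1 and ELAVL1 were lowest with 8 each. Of 4 partners of YTH proteins 2 to 4 had a peak in a list. SRSF3, a splicing factor bound by YTHDC1, and MEIOC, a germ cell partner of YTHDC2, were highest with 11 each, and XRN1, an exonuclease bound by YTHDC2, was lowest with 8. With 24 to 39 peaks over the lists, YTHDC1, YTHDF1, YTHDF2 and YTHDF3 lay inside the range of the writers, as did YTHDC2 with 22.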

How the data were processed

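Members and gene lists were chosen with earlier results of these data known. Reads had been trimmed with fastp and mapped by HISAT2 (GRCh38), and exomePeak2 called peaks over the 2 IP and 2 input libraries of a population at once. The annotation behind the lists is not given in the sources used here. The deposited values of a peak are pooled counts of IP and of input reads, the caller's log2 enrichment and its p-value, with an adjusted one that was not used. The study's stated limits were 1.5 for IP/input and 1e-05 for p. The deposited lists did not hold to that p, since 54.1% to 94.3% of peaks were below it. No column gave values of a single library, and 0 columns of such values were left out. Library totals were not used, so depth is given as reads inside peaks.

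Here peaks were reduced to exons of GENCODE 44 with bedtools 2.31.1 and pysam 0.24.0. Overlap was on the same strand. Regions refer to the longest coding isoform and to the midpoint of a peak. Motifs were counted on the transcript strand and, as an alternative, on the opposite one. Exonic lengths under 25 nt were set to 25 nt for the offset. An offset of up to 30 rows was called where Pearson's r was at least 0.15 and exceeded the next by 0.1. Rows whose gene ID number lay over 20000 from the median of 41 rows were left out of it. The call, overlap and motif code was tested on simulated data. Counting errors of log2 ratios used 0.5 added to each count, take pooled counts as sums, and ignore PCR copies.

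The members were the named genes, and other genes were named as the highest or lowest of their list. Genes of like enrichment were to be named too, and this was not done because the values in many rows may not belong to the peak of that row.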

Additional observations from a re-analysis of the deposited data

How the results depend on the processing

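Of 49 values under an alternative, 32 stayed close to the reported one (counts within 1.5 times), 16 did not and 1 turned round. At p below 1e-05 the count of member peaks was 15 in hPSC and 10 in WT PP. At an IP/input ratio of at least 3 it was 14, 14, 15 and 8 along the 4 stages. These thresholds use the values of the row as deposited. With reciprocal overlap above 50%, 13 member peaks of A5-KO PP were shared with WT PP. Differences in deposited log2 enrichment of 1 or more were also counted where each list held at least 50 input reads, which by construction leaves fewer pairs. There were 1 of 8 pairs from hPSC to DE, 0 of 11 from DE to PP and 3 of 6 in the knockout comparison. No share over all peaks was computed for such pairs. With the centred log2 ratio of the deposited counts there was 1 from DE to PP and 1 from PP to hILO, and in the knockout comparison the split of higher and lower went from 7 and 5 to 4 and 9. With counts at the offset, chosen after seeing the data, there were 0, 1 and 0 in the 3 steps (of 10, 8 and 3 pairs, with no share over all peaks on this scale), and no pair of WT PP and A5-KO PP. The motif density ratio was 2.43 with GGAC and 0.761 with DRACH on the opposite strand. For the motif and the centred ratio the cause was not tested. Inheritance between stages, and the split over 5UTR, CDS and 3UTR, stayed within 1.5 times under each alternative run. No paired analysis was possible because each list is 1 pooled call with no value per replicate, and for the same reason no replicate could be left out. Counting error alone was known. It was wide where input reads were few, such as 0.31 on the log2 scale for the third YTHDC2 peak in hPSC, with 24 input reads.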

Other observations

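FTO, an m6A demethylase beside ALKBH5, had 0, 1, 3 and 0 peaks along the 4 stages, then 7 in A5-KO PP against 4 in WT PP. ALKBH5 had 3 peaks at every stage of the first batch, then 5 in A5-KO PP against 4 in WT PP. HNRNPC had 4, 3, 4 and 3 peaks in the stages and 0 in both lists of the second batch, and SRSF3 had 2, 3, 3 and 3 and then 0 and 0. HNRNPC was chosen after its values were seen. The A5-KO PP list held 55219 peaks in all against 43312 in WT PP. These counts have no replicate check, and batch and cells cannot be told apart.

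The offset between positions and counts reached -8 in hPSC, -5 in DE and PP and -13 in hILO. It reached -12 and -22 in the WT PP and A5-KO PP lists. Of 35 groups of neighbouring member peaks 23 had a called offset, 17 of them other than 0, and input counts gave the same offset in 23 of 23. Both calls used the same rows and exonic lengths, so this is no independent check. At identical positions the rank correlation of input counts between WT PP and A5-KO PP was 0.32 over 3623 peaks, and over 10 parts of the list it ranged from 0.06 to 0.61. Of the 136 member peaks 42 stood on numbers away from the run of gene IDs around them.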
